A study of Mus musculus with 2 samples.

Results

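The ephrins and their Eph receptors were examined in 2 mouse mesoangioblast clones, D16 and D351. The members were 9 genes, chosen by name and with earlier results of these data known. They were the ligand genes Efna1, Efna4, Efnb1 and Efnb2 and the receptor genes Epha2, Epha3, Ephb2, Ephb3 and Ephb4. Of these, 7 had a probe set under their symbol in the platform annotation, each a single one, among 8251 named genes in all. Ephb2 and Ephb4 had no probe set under their current or older symbols and are not analysed here.

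Mesoangioblasts are vessel-associated progenitor cells of the embryonic aorta. Both came from C57BL6 mouse embryos, whose dorsal aorta was taken at embryonic day 9.5. An explant was cultured for 5 days and then dispersed, and single cells were cloned by limiting dilution. The feeder layer was Mitomycin C-treated primary embryonic mouse fibroblasts, the medium RPMI with fetal calf serum at 20%, and the clones were later expanded on gelatin. Neither clone carried a treatment or a named allele, and each clone stands for the descent of 1 cell, measured once on a U74A array of total RNA. Genes are named through an annotation of version 2 of that array, while the labels read U74A, and this match was not checked further.

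Ephrins are ligands fixed to the cell surface, and Eph receptors form the largest family of receptor tyrosine kinases. Ephrin-A proteins are held by a lipid anchor and ephrin-B proteins span the membrane. Both sides signal when neighbouring cells touch, which governs cell repulsion, adhesion and the sorting of cells into compartments. In the embryonic vasculature ephrin-B2, the product of Efnb2, marks arterial endothelium and its receptor EphB4 marks venous endothelium. Ephrin-B2 is also made by the mural cells that surround vessels.

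Levels are intensities after scaling both arrays to a common median, and ratios are log2 values of D351 over D16. An intensity of 17.5, the 40th percentile, served as a floor. A gene is called detected where the level of its brightest probe set on average reaches the floor. One detected in a single clone has only a bound on its ratio, and one detected in neither has no ratio. With 1 array per clone there is no test, standard error or p-value, and a difference in a level cannot tell fewer expressing cells from less RNA per cell. The measurable part of the error is the spread between probe sets of the same gene, with an SD of 0.52 in log2 units (806 genes), which leaves out differences between cultures. At least 2-fold was the size counted.

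The promoters of 4 members are shown because Efnb2, Epha3 and Ephb3 were the members past 2-fold and Efna1 was detected in D16 alone. Each sequence is from RefSeq, build GRCm38.p6, and runs 5′ to 3′ on the gene's strand from 250 bases before the annotated start through the first 50 bases of the transcript. Capitals mark matches on either strand to the GC box GGGCGG, the TATA box TATAAA, the core TGGGAA of the Notch effector RBPJ and the E-box CACGTG.

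Efnb2 promoter, chr8:8661193-8661492, minus strand: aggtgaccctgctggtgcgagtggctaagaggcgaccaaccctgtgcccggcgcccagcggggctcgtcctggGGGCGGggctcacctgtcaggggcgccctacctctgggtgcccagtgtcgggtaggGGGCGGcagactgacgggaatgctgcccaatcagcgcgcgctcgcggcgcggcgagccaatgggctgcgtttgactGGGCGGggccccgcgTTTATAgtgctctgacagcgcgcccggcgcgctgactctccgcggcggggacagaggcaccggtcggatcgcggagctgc

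Efna1 promoter, chr3:89280902-89281201, minus strand: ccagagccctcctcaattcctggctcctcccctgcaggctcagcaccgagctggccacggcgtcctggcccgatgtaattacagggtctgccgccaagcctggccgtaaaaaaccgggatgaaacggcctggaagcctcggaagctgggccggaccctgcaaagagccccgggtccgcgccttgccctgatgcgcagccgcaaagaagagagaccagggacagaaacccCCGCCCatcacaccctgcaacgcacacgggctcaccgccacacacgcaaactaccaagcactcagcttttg

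Epha3 promoter, chr16:63864126-63864425, minus strand: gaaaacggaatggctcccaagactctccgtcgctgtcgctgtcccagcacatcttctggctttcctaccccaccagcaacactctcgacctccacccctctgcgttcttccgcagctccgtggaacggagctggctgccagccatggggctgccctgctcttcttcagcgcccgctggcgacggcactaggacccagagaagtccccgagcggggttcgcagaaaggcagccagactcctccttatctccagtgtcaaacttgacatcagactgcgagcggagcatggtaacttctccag

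Ephb3 promoter, chr16:21204545-21204844, plus strand: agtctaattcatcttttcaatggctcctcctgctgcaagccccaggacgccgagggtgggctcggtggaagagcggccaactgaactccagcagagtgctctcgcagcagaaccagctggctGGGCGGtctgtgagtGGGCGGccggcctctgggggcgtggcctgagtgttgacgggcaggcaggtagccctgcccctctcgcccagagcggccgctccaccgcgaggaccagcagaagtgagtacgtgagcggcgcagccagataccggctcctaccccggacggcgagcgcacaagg

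The Efnb2 promoter held GC boxes beginning 177, 121 and 45 bases before the start and a TATA box, on the opposite strand, beginning 30 bases before it. The Efna1 promoter held 1 GC box and that of Ephb3 held 2. No searched motif was in the Epha3 window, and no matches overlapped in the 4 promoters. All 9 members had a promoter in the table, as did 21 of the 22 genes of the whole family, and the first entry of each gene was used. GC boxes were in 5 of 9 member promoters and 16 of 21 family promoters, against 35.7% of the 32851 promoters in the table. This motif background takes every promoter of a gene, while the member and family counts take only the first. The TATA box was in 1 of 9 (Efnb2), against 13.6% of all promoters, the RBPJ core in 1 of 9 (Efnb1), against 25.6%, and the E-box in 0 of 9, against 7.15%. The members shared a high base content of G and C, with a median of 63.7% and a range from 54.7% to 72.3%, against a median of 52.7% over the first promoters of 27025 genes. They held a median of 18 CpG pairs each, against 7. Matches are letters in these windows only and describe no binding.

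Among the ligands, the transmembrane ephrin gene Efnb2 stood far above the floor in both clones and was higher in D16. Its level was 299 in D16 and 105 in D351. It was thus 2.85-fold higher in D16, a log2 ratio of -1.51, about 3 times the spread between probe sets. Among the 5195 genes measured in both clones, 146 had a lower ratio. A single probe set measured it, so its ratio has no second reading within the arrays. Scaling the arrays on their hybridization controls in place of the median gave a log2 ratio of -1.12.

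Efna1, a lipid-anchored ephrin first found as a gene induced by tumour necrosis factor in endothelial cells, was detected only in D16. Its level was 32.0 in D16 and 4.38 in D351. The bound is at least 1.83-fold higher in D16, which is under the 2-fold size. With the floor lowered to the 25th percentile, an intensity of 7.26, the log2 bound was -2.15, past 2-fold.

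Efnb1, the X-linked transmembrane ephrin that controls boundaries in the embryonic skeleton and face, was near the floor and at nearly equal levels in both clones. It measured 24.1 in D16 and 24.2 in D351, a log2 ratio of 0.0091. Efna4, a lipid-anchored ephrin, was below the floor in both clones, at 4.22 in D16 and 17.3 in D351, so it has no ratio. Its D351 level lies just under the floor, and with the lower floor of 7.26 its log2 ratio was at least 1.24.

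The remaining ephrin genes, which complete the ligand family, were within 2-fold, had only a bound under it or had no ratio. Efna3, a neighbour of Efna1 and Efna4, measured 155 in D16 and 127 in D351, a log2 ratio of -0.28. On chromosome 3 of GRCm38.p6, Efna1, Efna3 and Efna4 follow each other with 0 protein-coding genes between them. The 3 neighbours had different patterns: above the floor in D16 alone, in both clones, and in neither. Efnb3, a transmembrane ephrin of the nervous system, measured 40.8 and 58.6 by its brightest probe set (log2 ratio 0.52) and 34.8 and 29.1 by its other one (-0.26), so its probe sets disagree in sign. Efna2 measured 10.6 in D16 and 19.0 in D351, a bound of at least 1.09-fold. Efna5 was below the floor in both clones, at 1.67 and 6.11.

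**Figure D1:**
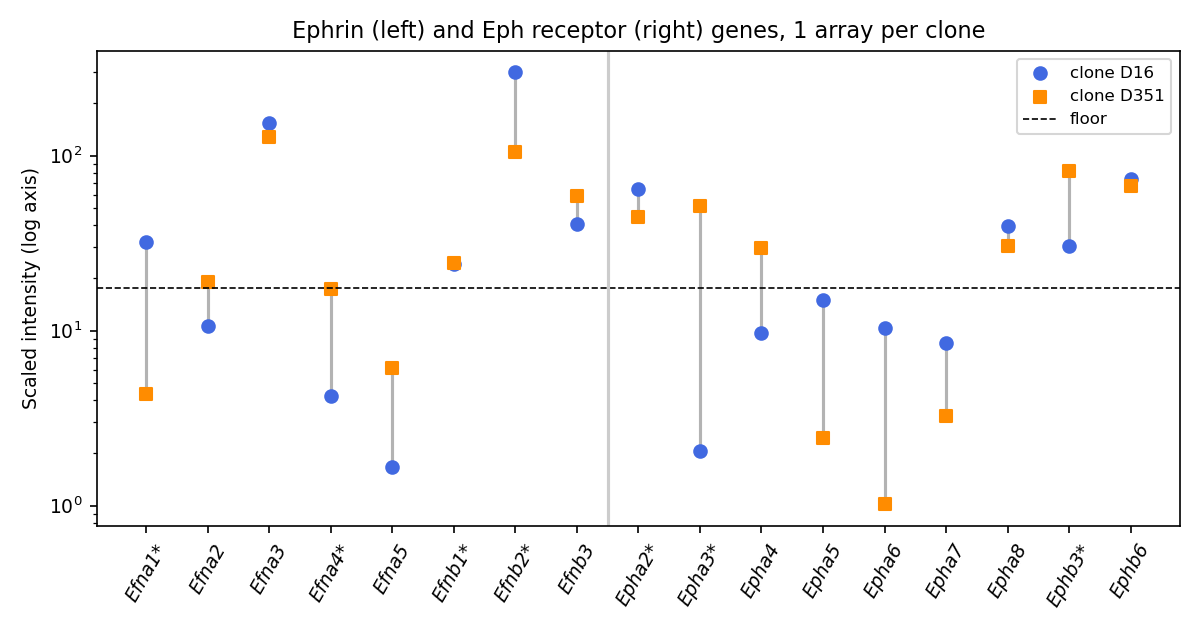
Scaled intensity (log axis) of the 17 ephrin and Eph genes with a probe set, in clone D16 (circles) and clone D351 (squares), 1 array each; asterisks mark the members and the dashed line is the floor of 17.5. Efnb2 was at 299 and 105, and Epha3 at 2.06 and 51.8; points below the dashed line are not measured levels.

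Among the receptors, Epha3 and Ephb3 were higher in D351 and Epha2 was somewhat lower there. Epha3, a receptor of ephrin-A ligands known in heart valve and mesenchymal development, was below the floor in D16. Its level was 2.06 in D16 and 51.8 in D351. Its D351 level was at least 2.96-fold the D16 level, and the lower floor of 7.26 gave a log2 bound of 2.83. The clones therefore lie on opposite sides of the floor, and the size of the difference is known only as a bound.

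Ephb3, a receptor of ephrin-B ligands, was above the floor in both clones. Its level was 30.7 in D16 and 81.5 in D351. The D351 level was 2.66-fold the D16 level (log2 ratio 1.41), and 222 of the 5195 genes measured in both clones had a higher ratio. Its D16 level lies near the floor; with the floor raised to the 60th percentile, an intensity of 53.3, the log2 bound was 0.58, under 2-fold.

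Epha2, a receptor of ephrin-A ligands whose preferred partner is ephrin-A1, was above the floor in both clones. Its level was 64.2 in D16 and 44.5 in D351, 1.44-fold lower in D351 with a log2 ratio of -0.53. That is about the size of the spread between probe sets, and with hybridization control scaling it was -0.14. Efna1 and Epha2 thus both had their higher level in D16, though neither passed 2-fold.

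The other Eph genes on the array were also read. Epha4, which binds ephrins of both classes, measured 9.73 in D16 and 29.8 in D351 by its brightest probe set, a bound of at least 1.71-fold, while its other probe set was below the floor in both clones. Epha8 measured 39.9 and 30.4 (log2 ratio -0.39). Ephb6, which lacks kinase activity, measured 73.8 and 67.2 by its brightest probe set (-0.14) and 37.6 and 43.7 by the other (0.21). The mainly neural receptors Epha5, Epha6 and Epha7 were below the floor in both clones by all their probe sets, with brightest levels of 15.0, 10.4 and 8.55 in D16 and 2.44, 1.02 and 3.26 in D351.

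Of the 7 members with a probe set, 6 were detected in at least 1 clone and 4 in both. At least 2-fold apart were 3 of the 6, against 19.4% of the 6096 detected genes of the whole array. The members were chosen with earlier results of these data known, so their share is no measure of an excess. Towards D351 there were 2, Epha3 and Ephb3, both receptors, against 10.6% of all detected genes. Towards D16 there was 1, the ligand Efnb2, against 8.84%. In the whole family of 22 genes, 17 had a probe set and 12 were detected. The same 3 genes were the ones past 2-fold among those 12, and the other 9 lay within it or had a bound under it. The ratios were above 0 in 6 and below 0 in 6, with a median log2 ratio of -0.06, bounds taken at their value, against -0.03 over all 6096 genes. The family median was 0.26 and that of all genes 0.34 with hybridization control scaling, where the ratios of Efna3, Epha8 and Ephb6 were above 0 at 0.11, 0.0022 and 0.26.

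**Figure D2:**
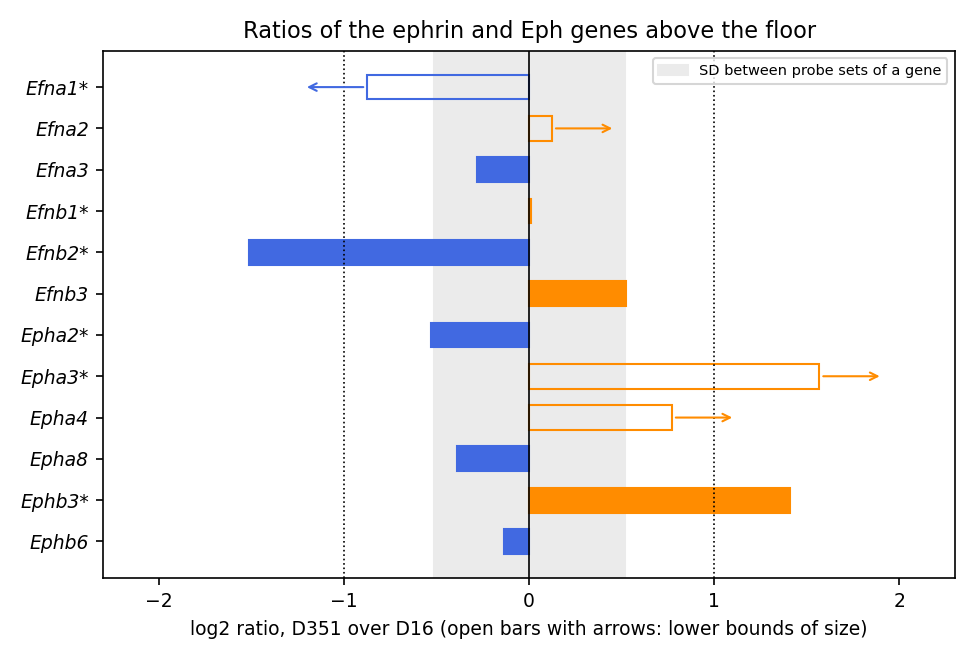
Log2 ratio of D351 over D16 for the 12 detected ephrin and Eph genes; filled bars are measured in both clones, open bars with arrows are bounds, the grey band is 1 SD between probe sets of a gene (0.52), dotted lines are 2-fold and asterisks mark members. Efnb2 (-1.51) passes 2-fold to the left, and Epha3 (at least 1.57) and Ephb3 (1.41) to the right.

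**Figure D3:**
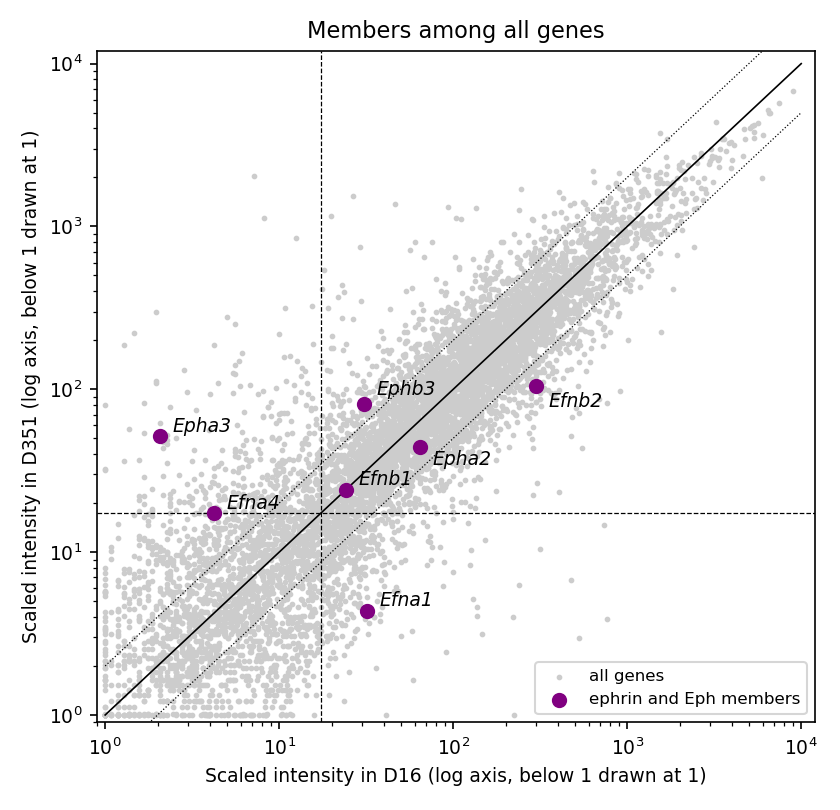
Scaled intensity in D351 against D16 (log axes, values below 1 drawn at 1) for all 8251 genes (grey) with the 7 members named; the solid line is equality, dotted lines are 2-fold and dashed lines the floor of 17.5. Efnb2, Epha3 and Ephb3 are past 2-fold and lie outside the dotted lines, while Efnb1 lies on the line of equality. Efna1 (bound under 2-fold) and Efna4 (no ratio) also lie outside them, as levels are drawn without the floor.

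The arterial marker Efnb2 could be set beside other vessel genes but not beside the venous marker Ephb4, which has no value here. Of 22 listed arterial markers, 17 had a probe set and 10 were detected. Past 2-fold towards D16 was 1 of the 10, Efnb2 itself, and towards D351 also 1, the lymphangiogenic growth factor gene Vegfc, at 17.0 and 41.3 (at least 2.36-fold). Both counts were near the shares of all detected genes, 8.84% towards D16 and 10.6% towards D351. The list median was -0.13, with 4 ratios above 0 and 6 below. Others, named after their values were seen, went each way. The Notch receptor gene Notch1 measured 119 in D16 and 74.4 in D351 (log2 ratio -0.68). Nrp1, a co-receptor of vascular growth factors, measured 441 and 608 (0.46), and the Notch target gene Hey1 8.15 and 23.6 (at least 0.43).

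Of 8 listed venous markers, 6 had a probe set and 2 were detected by their brightest one, while a dimmer probe set of Flt4 reached 19.1 in D16. Lefty1, a secreted inhibitor of nodal signalling, measured 58.1 in D16 and 14.5 in D351, at least 3.32-fold higher in D16, and its other probe set was below the floor in both clones. Nr2f2, the nuclear receptor that specifies veins, named after its values were seen, measured 209 in D16 and 131 in D351 (-0.68). Its measured probe set has the suffix r, given on these arrays where rules of probe selection were relaxed, as has the brightest one of Ephb6.

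Most endothelial markers were not detected. Of 15 pan-endothelial markers with a probe set, 10 were detected in neither, among them Cdh5, which encodes VE-cadherin, and the receptor genes Kdr, Tek and Tie1. Their levels were 3.44, 7.07, 1.38 and 8.35 in D16 and 1.22, 5.29, 1.63 and 0.916 in D351. The endothelial adhesion gene Pecam1 was detected in both clones, at 30.8 and 20.3, and so was Eng, a co-receptor of TGF-beta, at 128 and 123. Of the other detected markers, Cd34 was at least 27.2-fold higher in D16, with Thbd at least 5.34-fold and Flt1 at least 3.78-fold higher in D351. The summed level of the 15 markers was 697 in D16 and 339 in D351. Most of the D16 sum was Cd34, at 475 there and 6.72 in D351, so the sums do not describe the other markers. Such sums add intensities of different probe sets, undetected ones included, and are no measure of cell number. Their part in the Efnb2 difference was not tested.

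Markers of mural cells and of fibroblasts, the kind of cell used as feeders, had higher summed levels in D351. Over all detected genes, 10.6% were past 2-fold towards D351 and 8.84% towards D16. Smooth muscle markers had 6 of 8 genes past 2-fold towards D351 and 0 towards D16, with summed levels of 1826 and 5518. Pericyte markers had 1 of 6 past 2-fold towards D351, the receptor gene Pdgfrb (3.62-fold), and 0 towards D16, with summed levels of 301 and 484. Most of the rise in that sum was Pdgfrb, at 54.3 in D16 and 197 in D351. Fibroblast markers had 5 of 9 past 2-fold towards D351 and 1, S100a4, towards D16, with summed levels of 8682 and 12494. Their ratios were above 0 in 6 and below 0 in 3. With the mean over probe sets, 3 fibroblast markers passed 2-fold towards D351, as did 603 of all genes. The largest rises in level, named after their values were seen, were in Col1a1 (1538 and 3771) and Col1a2 (1693 and 3438). The other probe set of Col1a1 measured 372 and 496 (log2 ratio 0.42). That of Col1a2 went the other way, at 215 and 139 (-0.62). Whether feeder cells or the clones made these transcripts was not tested. Of 10 haematopoietic markers 5 were detected in neither clone by their brightest probe set, with summed levels of 148 and 126, and of 7 epithelial markers 6 were not, with 111 and 86.4. Neural markers had 4 of 8 below the floor in both clones and summed levels of 1069 and 1033. The part of these genes in the ratios of Epha3 and Ephb3 was not tested.

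Transcripts of partners of Eph and ephrin signalling, inside the cell and at its surface, were mostly within 2-fold. Of 49 listed partners, 37 had a probe set and 32 were detected. Past 2-fold towards D351 were 0 of the 32, and towards D16 there were 2, against 10.6% and 8.84% of all detected genes. Ngef, which encodes ephexin, a protein that binds EphA receptors, measured 88.1 in D16 and 8.65 in D351. It was at least 5.04-fold higher in D16. Cbl, which encodes a ubiquitin ligase that marks receptor tyrosine kinases for degradation, measured 36.5 in D16 and 15.6 in D351, at least 2.08-fold higher in D16.

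The list median of the partners was 0.26, with 23 of 32 ratios above 0, against a median of -0.03 over all genes. Adam10, the protease that sheds ephrins on contact, named after its values were seen, measured 102 in D16 and 201 in D351, a log2 ratio of 0.98, just under 2-fold. Its other probe set had 0.64. With hybridization control scaling 9 partners passed 2-fold towards D351 and 1 towards D16, and their median was 0.65, while the same scaling gave 1209 of all genes towards D351, 247 towards D16 and a median of 0.34.

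Other receptor tyrosine kinases and other contact guidance systems give the setting for the Eph genes. Of 38 other receptor tyrosine kinase genes with a probe set, 21 were detected, with 6 past 2-fold towards D351, 1 towards D16 and a median of 0.30, against shares of 10.6% and 8.84% of all detected genes. Among them were Ddr2, a collagen receptor (104 and 340, 3.28-fold), Egfr, the epidermal growth factor receptor (30.1 and 95.0, 3.16-fold), and Pdgfrb (54.3 and 197). Of 28 genes of the semaphorin, netrin and slit systems, 18 were detected, with 2 past 2-fold towards D16, 1 towards D351 and a median of -0.21, against the same shares of 8.84% and 10.6%. The netrin receptor gene Unc5c measured 79.6 in D16 and 17.5 in D351, a level at the floor, and was 4.55-fold higher in D16. The repulsive semaphorin gene Sema3a measured 85.2 and 26.5 (3.22-fold higher in D16), and the netrin receptor gene Neo1 31.8 and 68.4 (2.15-fold higher in D351). No difference between these lists and the Eph genes could be tested.

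**Figure D4:**
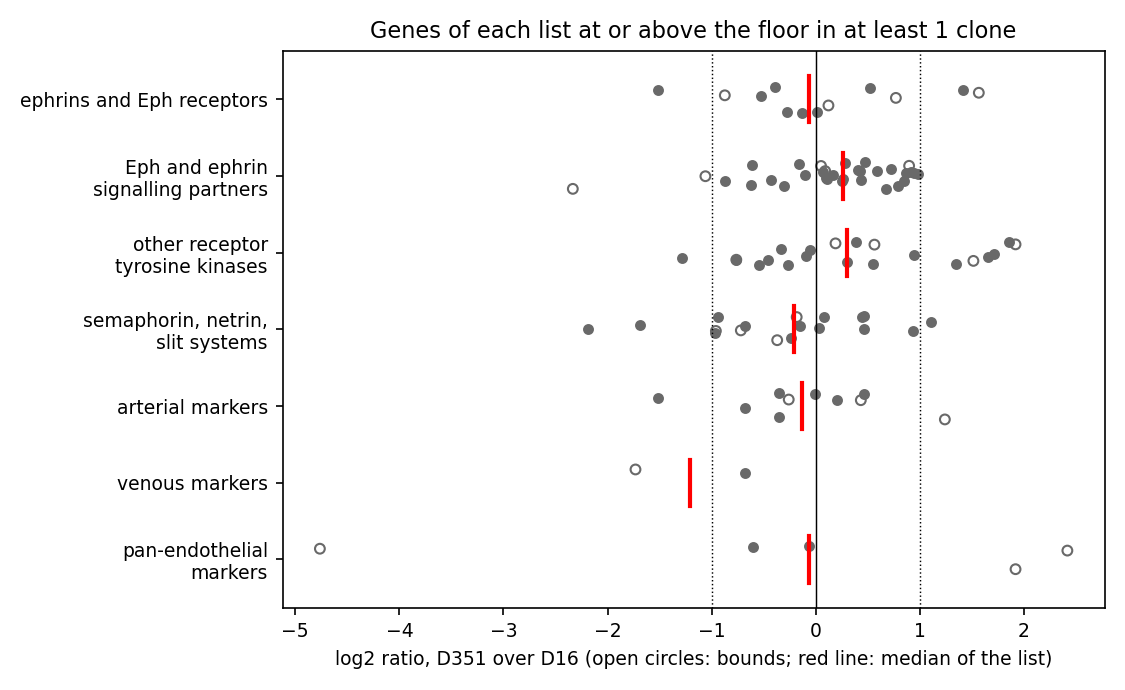
Log2 ratio of D351 over D16 for detected genes, by gene list; filled points are measured in both clones, open circles are bounds, the red line is the median of the list and dotted lines are 2-fold. The ephrin and Eph genes spread to both sides with a median of -0.06, while 23 of 32 signalling partners lie above 0.

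The genes whose pair of levels lay nearest to that of Efnb2 were Plk1, the mitotic kinase (291 and 105), the nuclear import gene Kpna2 (297 and 109) and Rnf220 (287 and 102), by Euclidean distance of the log2 levels over 2 arrays (0.041, 0.057 and 0.074). Intensities of different probe sets are not on a common scale, so this is a likeness of readings only.

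Across the alternatives to the processing, Efnb2 stayed at least 2-fold higher in D16 in all 9. The alternatives in the probe set rule could only repeat the main value, as each member has a single probe set, so they check nothing here. Epha3 stayed at least 2-fold higher in D351 in 8 of 9 and had no ratio with the floor at the 60th percentile. Ephb3 stayed so in 8 of 9 as well, the exception being the same floor. Over these settings the log2 ratio ran from -1.57 to -1.12 for Efnb2, from 1.54 to 2.83 for Epha3, from 0.58 to 1.80 for Ephb3 and from -0.58 to -0.14 for Epha2.

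**Figure D5:**
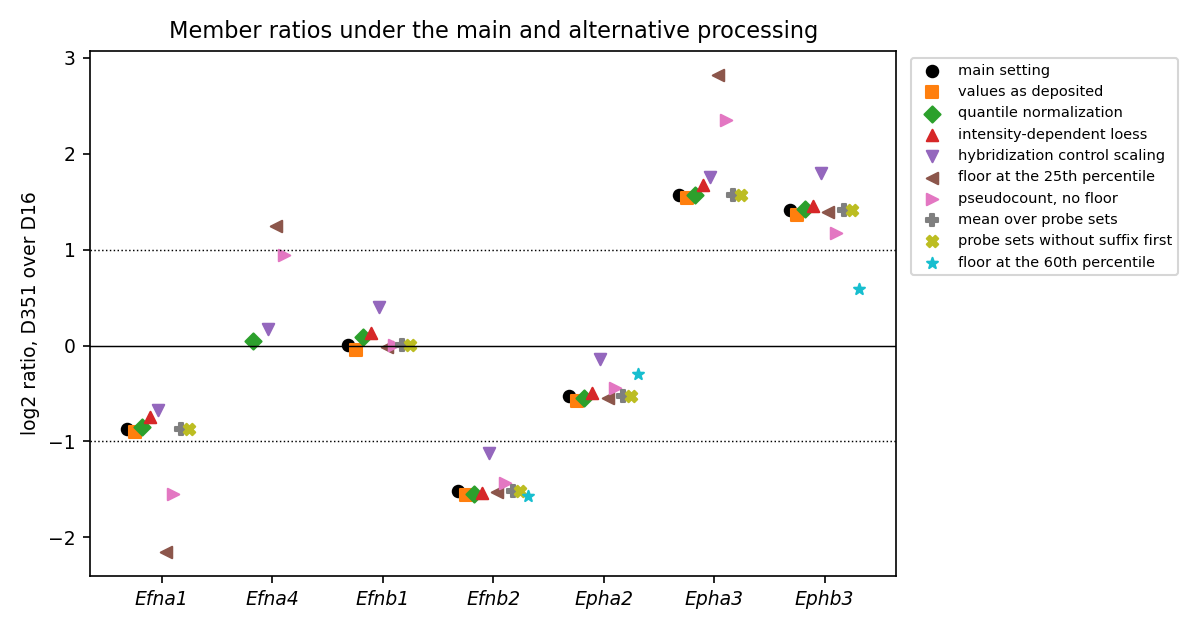
Log2 ratio of D351 over D16 for the 7 members with a probe set under the main setting (black circles) and 9 alternatives (other symbols), where a gene below the floor in both clones has no point; dotted lines are 2-fold. Efnb2 stays between -1.57 and -1.12, and the outlying points of Efna1, Efna4, Epha3 and the lowest point of Ephb3 are those with another floor or the pseudocount.

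Control probe sets gave a reading of RNA quality. The ratio of 3′ to 5′ probe sets was 1.81 in D16 and 1.37 in D351 for Actb and 1.56 and 1.44 for Gapdh. Of the 12422 non-control probe sets, D16 had 60.6% above the floor and D351 had 59.3%.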

How the data were processed

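The deposited table gives 1 intensity value per probe set on a linear scale for each clone, as the authors deposited it. How the authors corrected background and scaled them is not given in the sources. Both columns had a 2% trimmed mean of 100.1, as after scaling to a common target. Symbols came from the annotation of version 2 of the platform, updated by Entrez gene number to RefSeq GRCm38.p6: 10833 of 12422 non-control probe sets had 1 symbol, 396 several and 1193 none, and only the first kind named a gene.

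The arrays were multiplied by 0.983 (D16) and 1.02 (D351) to equal median log2 levels, values below the floor (the mean over both arrays of their 40th percentile, 17.5) were set to it, and the brightest probe set on average stood for its gene. The planned contrast of Efnb2 with Ephb4 could not be computed. No test was possible, and the number of arrays limits the precision.

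The members and gene lists were chosen with earlier results of these data known. The rule for named genes took all family genes, from each list at most 4 past 2-fold, largest first (or the 2 highest in level), and the 3 genes nearest to Efnb2. Some genes of the lists, such as those of smooth muscle and most of those of fibroblasts, are given by their counts only. Alternatives covered scaling, floor, a pseudocount of 10 and the probe set rule. The functions were tested on simulated arrays. Calculations used Python 3.11.15, numpy 2.4.6, pandas 2.3.3, statsmodels 0.14.6 and matplotlib 3.10.9.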

Additional observations from a re-analysis of the deposited data

How the results depend on the processing

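No paired analysis was possible because there is 1 array a clone, and no replicate could be left out. The contrast of Efnb2 with Ephb4 has no value under any setting. With the floor at the 25th percentile, the log2 ratio was -2.15 for Efna1, 1.24 for Efna4 and 2.83 for Epha3. At that floor 2 members passed 2-fold towards D16 and 3 towards D351, as did 872 and 836 of all genes. With a pseudocount of 10 and no floor, the ratios were -1.55, 0.94 and 2.36. There 2 members passed 2-fold towards D16 and 2 towards D351, as did 543 and 644 of the 6096 genes detected under the main floor. With the floor at the 60th percentile, Ephb3 had a log2 ratio of 0.58. Past 2-fold were 0 members towards D351 and 1 towards D16. Of all genes 374 and 354 passed it towards D351 and D16, against 645 and 539 in the main setting. The number of detected genes changes with the floor, and no shares were computed under the other floors. Efna4 had a ratio of 0.05 with quantile normalization and 0.18 with hybridization control scaling. That scaling gave 1209 genes past 2-fold towards D351 and 247 towards D16, a share of 83.0% towards D351 against 54.5%, and moved the median of all genes from -0.03 to 0.34. Of 51 values of the 6 detected members' ratios under alternatives, 46 moved by less than the SD between probe sets, and 0 of those past 2-fold reversed. Those under the probe set rules could not move, as each member has a single probe set. Ratios lost with the floor at the 60th percentile, of Efna1, Efnb1 and Epha3, are not among the 51. Levels near the floor limit the size of the ratios of Efna1, Efna4, Efnb1, Epha3 and Ephb3.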
